A study of Phaseolus vulgaris with 6 samples.

Results

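Hooked hairs of the common bean (Phaseolus vulgaris, genotype L88-57) were compared with one of the 2 kinds of trichome sample in the series, by RNA sequencing. The comparison takes 4 of the 6 libraries, which are 2 of hooked hairs (group BG) and 2 of trichomes (group EPI), and leaves a second trichome group (AG, 2 libraries) out of the contrast. Genes were kept where at least 2 of these 4 libraries reached 1 TPM (a level normalised for gene length and library size), which gave 21133 of the 27433 genes listed. All plants were grown in a growth chamber at low light and received no treatment, and no mutant or transgene is named. The labels do not spell out the codes BG, EPI and AG, so the organ or position each group came from is unknown. Nothing in them tells whether paired libraries are from different plants, so the p-values cover the spread of these libraries alone, possibly of technical origin.

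Trichomes are outgrowths of epidermal cells that cover the aerial surfaces of many plants, and they may be glandular, secreting metabolites, or plain hairs that act as a physical barrier. Hooked hairs are hairs with a curved, pointed tip, and on bean leaves they are known to catch on small insects. A hair sample holds RNA of whatever cells were collected with the hairs, and in such bulk samples fewer cells of a type and less RNA per cell cannot be told apart. The files give gene IDs without names or products, so the labelled structures could not be checked against marker genes and no gene's function is given.

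The 4 libraries were alike in the number of genes detected but differed in depth. They listed between 20221 and 20556 genes at 1 TPM or more, and BG library 1 was the deepest, at 1.473 times the relative depth of EPI library 2, the shallowest. Across the 21133 genes, the BG libraries correlated with each other at Pearson r = 0.926 on the log2 scale and the EPI libraries at 0.903. EPI library 1 correlated with the BG libraries at 0.838 and 0.82, and EPI library 2 at 0.749 and 0.775. These are descriptions across genes, which are not independent replicates.

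Among the genes called, those lower in hooked hairs were the more numerous and held the larger share of transcripts. Against EPI, 373 genes were higher in BG and 729 were lower (limma on log2(TPM + 1), Benjamini-Hochberg adjusted p under 0.05). Together these 1102 genes are 5.21% of the genes tested, 1.77% called higher and 3.45% called lower. The excess in number of lower genes was not seen by size against EPI library 2 alone. The BG mean was at least 4-fold above that library for 1189 genes and at least 4-fold below it for 1155. Against EPI library 1 alone these counts were 606 and 930. The 729 lower genes made up 12.5% and 11.1% of all listed TPM in EPI libraries 1 and 2, and 1.72% and 1.32% in BG libraries 1 and 2. The 373 higher genes made up 2.08% and 2.55% in the BG libraries and 0.312% and 0.274% in the EPI libraries. The genes called lower were thus a sizeable part of the EPI transcript pool, while the genes called higher held no more than 2.55% of any of these 4 libraries. The genes were picked by this contrast, so these shares describe the calls and add no evidence for them. TPM values add up to a fixed total in each library, so a fall of some genes is balanced among the others, called or not.

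The called genes differed by large factors. The median change was 2.7 on the log2 scale for the higher genes and 2.58 for the lower genes, without regard to sign. At least a 4-fold change was seen in 311 of the higher and 568 of the lower genes, and at least a 16-fold change in 56 and 66, all on the log2(TPM + 1) scale. These include 31 higher genes listed at 0 in both EPI libraries and 8 lower genes listed at 0 in both BG libraries, whose fitted change depends on the pseudocount. Leaving these out, the medians were 2.67 and 2.57, with 281 and 560 genes at 4-fold or more and 48 and 63 at 16-fold or more. The smallest changes called were a log2 change of 1.02 upward and of -1.12 downward. Over all tested genes the median log2 change was 0.045. Both BG libraries lay beyond both EPI libraries for all 1102 called genes, but so they did upward for 25.5% and downward for 25.4% of all genes tested. Higher genes were less abundant where they were high, with a median of 22.9 TPM in BG, against 43.2 TPM in EPI for the lower genes. In the structure where they were high, a mean of 100 TPM was reached by 51 of the 373 higher and 203 of the 729 lower genes.

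The calls rested most on both hooked-hair libraries and on EPI library 2, and the list also changed much without EPI library 1. Without BG replicate 1 or 2 limma called 0 genes, with 3213 and 3320 genes at an unadjusted p under 0.05. Without EPI replicate 2, so that EPI was library 1 alone, 8 genes were called, of which 7 were among the 1102. Without EPI replicate 1, 930 genes were called, 444 higher and 486 lower, and 540 of these were among the 1102. In these fits the lone library is assumed to vary like the libraries of the other groups. The AG libraries, which enter only the estimate of the spread, mattered less, with 939 genes called without AG replicate 1 and 969 without AG replicate 2. A fit of the 4 BG and EPI libraries alone called 261 genes higher and 634 lower, and 759 of these 895 were among the 1102.

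**Figure D1:**
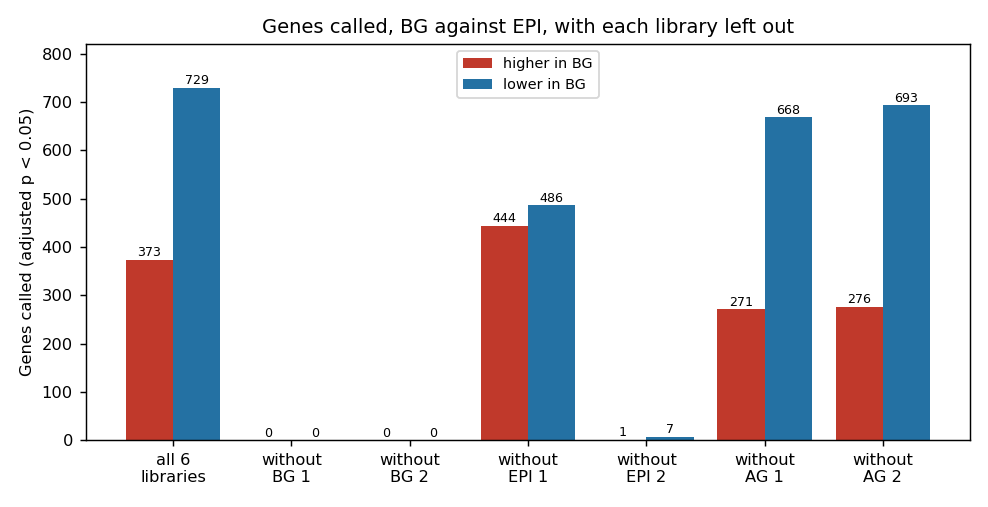
Number of genes called higher (red) and lower (blue) in hooked hairs (BG) against EPI trichomes, with all 6 libraries and with each library left out in turn. No gene was called without either BG library and 8 were called without EPI library 2, while leaving out EPI library 1 gave 444 higher and 486 lower.

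The EPI libraries were next set against hooked hairs one at a time, by size and with no test, since each is a single library. The difference between them lay mainly on the side of genes that were higher in hooked hairs. The BG mean was at least 4-fold above EPI library 1 for 606 genes (2.87%) and at least 4-fold above EPI library 2 for 1189 genes (5.63%). It was at least 4-fold below EPI library 1 for 930 genes (4.4%) and below EPI library 2 for 1155 genes (5.47%). Of the 606 and 1189 genes, 70 and 209 were listed at 0 in that EPI library, which leaves 536 and 980 others. EPI library 2 was also shallower than EPI library 1, and the part of depth in these counts was not tested. Of the 930 and 1155 genes, 14 and 17 were listed at 0 in both BG libraries. All these counts use the same BG libraries and the log2(TPM + 1) scale. The typical gene differed by a similar amount from either library, at a median absolute log2 difference of 0.446 from EPI library 1 and 0.479 from EPI library 2.

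**Figure D2:**
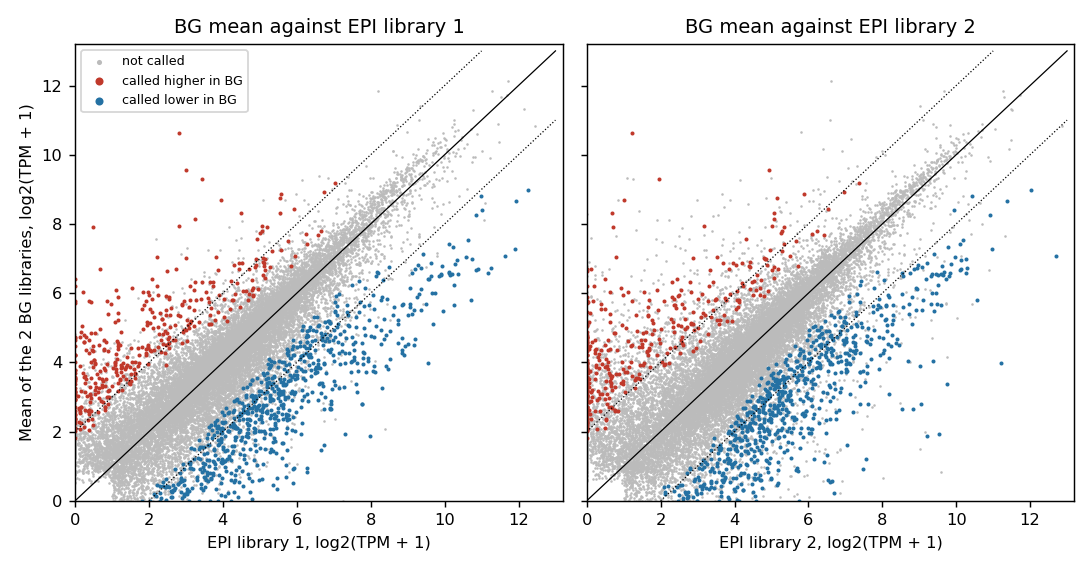
Mean level of the BG libraries (vertical axis) against EPI library 1 (left) and EPI library 2 (right), in log2(TPM + 1), for the 21133 genes tested. Red and blue points are the 373 genes called higher and the 729 called lower in BG, the solid line marks equal levels and the dotted lines a 4-fold difference, which 606 genes passed upward against EPI library 1 and 1189 against EPI library 2.

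Genes on which the EPI libraries disagreed mostly had a hooked-hair level nearer to EPI library 1 than to EPI library 2. EPI library 1 was at least 4-fold above EPI library 2 for 511 genes (2.42% of those tested) and at least 4-fold below it for 267 (1.26%). The BG mean was nearer to EPI library 1 for 425 of the 511 genes, or 83.2%, and for 202 of the 267, or 75.7%, against 53.7% of all genes tested. Among the 511 genes the median log2 difference of BG from EPI library 1 was -0.182 and from EPI library 2 it was 2.67. Among the 267 the medians were 0.296 and -2.35. These medians are signed, so differences in opposite directions cancel and the typical distance is not given. The share among the 511 genes was 72.8% with BG library 2 alone, beside 48.8% of all genes. With BG library 1 alone it was 88.5%, beside 59.4% of all genes. The share among the 267 genes depended on the pseudocount and the filter. With a pseudocount of 0.1 it was 53.8% of 526 genes, beside 53.7% of all genes in that setting. With at least 5 TPM in 2 of the 4 libraries it was 65.4% of 156 genes. With no filter on low values it was 80.9% of 340 genes, and the share with EPI library 1 higher was 81.6% of 521, beside 52.4% of all. A gene reaching 1 TPM in a single EPI library passes the filter only if a BG library reaches it too. The filter thus favours EPI library 1 where that library is higher and EPI library 2 where library 2 is higher. For comparison, the BG libraries differed by at least 4-fold for 334 genes with library 1 higher and 113 with library 2 higher.

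Among the called genes the place of EPI library 1 differed by direction. It stood above EPI library 2, that is nearer to BG, for 234 of the 373 genes called higher (62.7%), against 44.1% of all genes tested, and another 31 were listed at 0 in both EPI libraries. It stood below EPI library 2, again nearer to BG, for 329 of the 729 genes called lower (45.1%), against 55.6% of all genes tested. EPI library 1 was thus the nearer one for most of the higher genes and for a minority of the lower genes. The median log2 difference of BG was 2.58 from EPI library 1 and 2.88 from EPI library 2 for the higher genes, and -2.52 and -2.56 for the lower genes. The EPI libraries lay at least 4-fold apart for 19 of the 1102 called genes (1.72%), against 778 of all genes tested (3.68%). The gap between the EPI libraries enters the spread used by the test. Genes with a small gap are thus called more readily, and the lower share is no separate result.

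The gene with the highest level in BG library 1 shows this disagreement. Phvul.003G109100.v2.1 (chromosome 3, 27561953 to 27562969) stood at 5042 and 3914 TPM in the BG libraries and at 3358 and 97.2 TPM in EPI libraries 1 and 2. EPI library 1 lay just below the BG libraries and EPI library 2 far below them, so the groups did not overlap but the spread within EPI was wide. The difference did not pass (log2 change 2.95 ± 1.5 SE, limma adjusted p = 0.345). Without EPI replicate 1 it passed, with a log2 change of 5.5 (adjusted p = 0.0245, range over all alternatives 0.0245 to 0.888).

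The leading genes of BG library 2 and of both EPI libraries did not pass either. Phvul.004G075100.v2.1 (chromosome 4, 12938447 to 12941701), the highest in BG library 2 at 4807 TPM, stood at 2821 TPM in BG library 1, with 2501 and 2467 TPM for the EPI libraries (log2 change 0.568 ± 0.573 SE, limma adjusted p = 0.675). Here the EPI libraries agreed closely and the BG libraries did not. Phvul.005G027300.v2.1 (chromosome 5, 2539594 to 2540118) was the highest in both EPI libraries, at 5563 and 7424 TPM, against 1253 and 2648 TPM in BG. All 4 values were high and the groups did not overlap, but the test was not passed (log2 change -1.82 ± 0.776 SE, adjusted p = 0.257).

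The gene that rose most in hooked hairs had only a few TPM in EPI. Phvul.009G108100.v2.1 (chromosome 9, 16762151 to 16763330) stood at 1123 and 2231 TPM in the BG libraries and at 6.04 and 1.35 TPM in EPI libraries 1 and 2 (log2 change 8.61 ± 1.14 SE, limma adjusted p = 0.0203). The lower BG library was far above both EPI libraries, and this gene also had the highest mean level in BG among all genes called higher. Phvul.006G129400.v2.1 (chromosome 6, 23721882 to 23724151) stood at 143.8 and 391.9 TPM in BG, with EPI values of 0.409 and 0.638 TPM (log2 change 7.29 ± 1.15, adjusted p = 0.0255). Both EPI libraries were under 1 TPM, with library 1 the lower. Neither gene passed without BG replicate 1, BG replicate 2 or EPI replicate 2, or with no filter on low values (adjusted p = 0.054 for Phvul.009G108100.v2.1 and 0.0673 for Phvul.006G129400.v2.1), and Phvul.006G129400.v2.1 did not pass with the replicate number as a block (adjusted p = 0.0559; range over all alternatives 0.0239 to 0.16).

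The largest falls were in 2 genes that were abundant in EPI. Phvul.010G144300.v2.1 (chromosome 10, 42602084 to 42603658) stood at 250.6 and 587.8 TPM in EPI libraries 1 and 2 and at 5.16 and 1.19 TPM in the BG libraries (log2 change -6.71 ± 1.27 SE, limma adjusted p = 0.0383). Phvul.006G033900.v2.1 (chromosome 6, 12767922 to 12769746) stood at 158 and 742.4 TPM in EPI and at 1.92 and 3.88 TPM in BG (log2 change -6.51 ± 0.689, adjusted p = 0.0177). In both genes EPI library 1 was the lower of the EPI libraries and still far above both BG libraries. Phvul.006G033900.v2.1 passed in 15 of 17 alternatives, failing without either BG library, and Phvul.010G144300.v2.1 passed in 9. The latter failed without any one of the 4 BG and EPI libraries, with a pseudocount of 10 (adjusted p = 0.0679), with no filter on low values (0.0924), against a 1.5-fold threshold (0.0629) and with the replicate block (0.0666; range over all alternatives 0.0239 to 0.206).

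The genes called without EPI library 2 are those whose distance from EPI library 1 alone was large beside the spread of the BG and AG libraries. The gap between the EPI libraries does not enter that spread. Phvul.006G033900.v2.1 was among these genes. So was Phvul.001G264400.v2.1, at 150.7 and 1.69 TPM in EPI libraries 1 and 2, which was not called with all libraries. The only one of the 8 that was higher in BG was Phvul.009G257400.v2.1 (chromosome 9, 37778470 to 37782491), with 51.7 and 54.99 TPM in BG, against EPI values of 0.288 and 0.131 TPM (log2 change 5.4, limma adjusted p = 0.0479 without EPI replicate 2). Its BG libraries were nearly equal and its EPI libraries both close to 0. Among the lower ones, Phvul.011G148900.v2.1 (chromosome 11, 41978130 to 41980963) stood at 353.3 and 239.5 TPM in EPI and at 13.4 and 12.4 TPM in BG (log2 change -4.67, adjusted p = 0.0479). Both genes passed in 15 of 17 alternatives, failing without either BG library, and were named after their values were seen.

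Among genes called higher in BG, the 3 with the largest difference between the EPI libraries all had EPI library 1 above library 2. Phvul.009G162700.v2.1 (chromosome 9, 24156871 to 24159150) stood at 247.8 and 407.8 TPM in BG and 21.6 and 0.595 TPM in EPI libraries 1 and 2 (log2 change 5.73 ± 1.12 SE, limma adjusted p = 0.0416). Phvul.011G182500.v2.1 (chromosome 11, 49598759 to 49601038) stood at 536.5 and 316.6 TPM in BG, and EPI library 1 at 14.6 TPM lay above library 2 at 1.01 TPM (log2 change 6.21 ± 1.07, adjusted p = 0.0307). Phvul.011G183100.v2.1 (chromosome 11, 49661222 to 49662768) stood at 97.2 and 108 TPM in BG, with 5.64 and 0.0885 TPM for EPI libraries 1 and 2 (log2 change 5.27 ± 0.863, adjusted p = 0.0273). In each of them EPI library 1 lay between EPI library 2 and BG, and much nearer to EPI library 2 than to BG in TPM. All 3 lost the call without BG replicate 1, BG replicate 2 or EPI replicate 2 and with no filter on low values. In all, Phvul.009G162700.v2.1 lost it in 12 of 17 alternatives, among them the loss of either AG library, the 4 libraries alone and the replicate block (adjusted p = 0.0683; range over all alternatives 0.00578 to 0.215). Phvul.011G182500.v2.1 lost it in 6, the block among them (0.067; range 0.0196 to 0.183), and Phvul.011G183100.v2.1 in 5.

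Among genes called lower in BG, the corresponding 3 had EPI library 2 above library 1. Phvul.009G024900.v2.1 (chromosome 9, 6081584 to 6083102) had 22.6 and 189 TPM in EPI libraries 1 and 2, with 2.08 and 0.746 TPM in BG (log2 change -4.85 ± 0.984 SE, limma adjusted p = 0.0456). Phvul.003G217700.v2.1 (chromosome 3, 44550012 to 44553123) had 16.5 and 103.3 TPM in EPI libraries 1 and 2 and 0.377 TPM in BG library 1, and was listed at 0 in BG library 2 (log2 change -5.18 ± 0.837, adjusted p = 0.0267). Phvul.009G196900.v2.1 (chromosome 9, 29929890 to 29931052) had 14.6 and 85.1 TPM in EPI libraries 1 and 2, with 2.19 and 0.466 TPM in BG (log2 change -4.08 ± 0.841, adjusted p = 0.0481). As on the higher side, EPI library 1 was the EPI library nearer to BG in all 3, and it was still well above the BG libraries. All 3 lost the call without BG replicate 1, BG replicate 2 or EPI replicate 2, with a pseudocount of 10 and when low genes were not filtered out. In all, Phvul.009G024900.v2.1 lost it in 13 of 17 alternatives and Phvul.009G196900.v2.1 in 14, among them the loss of either AG library and the replicate block (adjusted p = 0.0932 and 0.0945; highest over all alternatives 0.225 and 0.232), and Phvul.003G217700.v2.1 in 5.

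**Figure D3:**
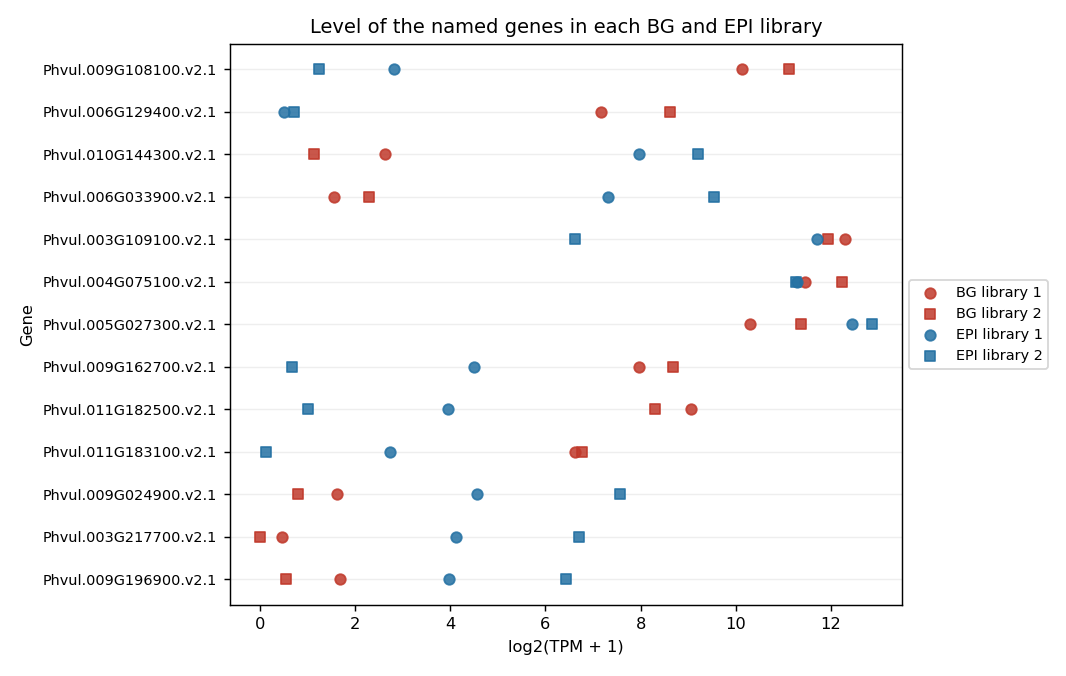
Level of 13 named genes in each BG (red) and EPI (blue) library, in log2(TPM + 1), with circles for library 1 and squares for library 2. From the top, the genes are the 2 largest rises, the 2 largest falls, the leading genes of the libraries, and the called genes with the widest gap between the EPI libraries, in which EPI library 1 always lies on the BG side of EPI library 2.

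By level, the genes called lower included some of the most abundant transcripts of the EPI libraries. The highest was Phvul.010G066400.v2.1 (chromosome 10, 25019438 to 25021034), which reached 3195 and 6625 TPM in EPI and 57.5 and 307.3 TPM in BG (log2 change -5.1 ± 0.883 SE, limma adjusted p = 0.031). It was followed by Phvul.002G196400.v2.1 (chromosome 2, 36094319 to 36095316), which reached 4859 and 4143 TPM in EPI and 677 and 378.8 TPM in BG (log2 change -3.14 ± 0.57, adjusted p = 0.0346). Both EPI libraries were of like height in the latter and differed about as much as a doubling in the former, with library 2 higher. The 10 most abundant genes called lower held 22.4% and 23.6% of the summed TPM of all 729 in the EPI libraries. On the higher side, the second most abundant gene in BG was Phvul.006G130000.v2.1 (chromosome 6, 23785101 to 23790542), with 723.3 and 779.7 TPM in BG, against EPI values of 6.99 and 29.7 TPM (log2 change 5.59 ± 0.703, adjusted p = 0.0196). There EPI library 2, not library 1, was the one nearer to BG. The 10 most abundant genes called higher held 26.7% and 30.6% of the summed TPM of all 373 in the BG libraries. The choice of these 3 genes followed from their values. None was called without BG replicate 1, BG replicate 2 or EPI replicate 2. Phvul.010G066400.v2.1 also lost the call without AG replicate 1, with no filter and against a 1.5-fold threshold. Phvul.002G196400.v2.1 passed in 7 of 17 alternatives, and its losses included the fits without EPI replicate 1, without either AG library, with no filter and with the replicate block (adjusted p = 0.0507; range over all alternatives 0.0207 to 0.234).

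A small number of genes was listed at 0 in both libraries of one structure and at 1 TPM or more in both of the other. There were 65 such genes for BG, with a median mean level of 4.24 TPM, and 33 for EPI, with a median of 2.98 TPM. They passed the filter on low values through the group where they are high and were picked by this contrast, so how many of them were called is no evidence, and the calls named here are given as descriptions. The BG gene with the highest mean was Phvul.009G189200.v2.1 (chromosome 9, 28712403 to 28713890), at 31.5 and 169.1 TPM, which passed at a limma adjusted p of 0.0409 and lost the call in 10 of 17 alternatives, among them no filter on low values (0.0967), the replicate block (0.0847; range 0.0285 to 0.204) and each of the 4 fits without a BG or EPI library. The EPI gene with the highest mean was Phvul.001G264400.v2.1 (chromosome 1, 51087611 to 51088003), with 150.7 and 1.69 TPM in EPI libraries 1 and 2. Its level thus came almost wholly from EPI library 1, and it did not pass (adjusted p = 0.216) except without EPI replicate 2 (0.0479, the lowest of a range up to 0.495). A listed 0 is not proof of absence at this depth, so no fold change of a single gene is given against a group listed at 0.

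Called genes lay on all 11 chromosomes. The share called ranged from 4.32% on chromosome 2 to 6.39% on chromosome 11, against 5.21% over all genes. The share called higher was lowest on chromosome 2, at 1.04%, and highest on chromosome 1, at 2.33%, and the share called lower was highest on chromosome 4, at 4.93%. Short genes were called more often than long ones. With the tested genes cut by span into 5 classes of nearly equal size, 3.85% of the shortest class (93 to 1630 bp) were called higher and 4.78% lower, and 0.308% and 1.96% of the longest class (6139 bp and more). The shares decreased from each class to the next in both directions. The typical difference moved with span as well, since the median absolute log2 change over all genes was 0.713 in the shortest and 0.257 in the longest class, and the median level was 3.3 and 4.13 on the log2 scale. The part of these in the share called was not tested. In 5 classes by mean level, the share called higher was 3.29% in the lowest and 1.04% in the highest, and the share called lower 2.27% and 4.61%.

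Some called genes were consecutive among the tested genes, though untested genes may lie between them. There were 9 runs of at least 3 consecutive tested genes called in the same direction, 6 of them lower in BG with 21 genes and 3 higher with 10 genes. No run was left without either BG library, without EPI replicate 2 or with no filter on low values, and 5 were found with the replicate block. Of the 6 lower runs, 3 lay on chromosome 4 and held 12 short genes with log2 changes of -4.31 to -4.04 (largest limma adjusted p = 0.0285). Together these 12 genes had 12842 and 6871 TPM in EPI libraries 1 and 2, and 794.6 and 351.7 TPM in BG libraries 1 and 2. EPI library 1 was the EPI library farther from BG here, 1.87-fold above EPI library 2 in sum and above it in each of the 12 genes. That is the opposite of its place among the genes on which the EPI libraries disagreed most. The gap was not particular to EPI, since BG library 1 was 2.26-fold above BG library 2 in sum. AG library 1 was also above AG library 2 in each of these genes, for example at 7313 and 3262 TPM in Phvul.004G064800.v2.1. Whether this offset goes with the replicate number was not tested. The 12 genes held 10.7% and 6.46% of the TPM of all genes called lower in EPI libraries 1 and 2. All 12 were called with the replicate block, 6 without EPI replicate 1 and 0 without EPI replicate 2, without either BG library or without the filter on low values. The sequences of these genes were not compared. If some are near-identical copies, they may share reads, and the split between them would be uncertain.

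The other runs were less abundant. On chromosome 10, 3 genes between 5753580 and 5808058 had a joint level of 84.2 and 57.4 TPM in EPI and 4.62 and 2.76 TPM in BG. A run of 3 genes on chromosome 1, from 21696985 to 22198839, reached 135.5 and 216.1 TPM in EPI and 32.6 and 31.0 TPM in BG. A run of 3 genes on chromosome 8, between 28427029 and 28785778, summed to 34.8 and 53.8 TPM in EPI and 6.55 and 5.88 TPM in BG. In all 3 runs both EPI libraries were above both BG libraries. Among the higher runs, 3 very short genes of 252 to 261 bp on scaffold_84 (14329 to 89747) reached 487.9 and 737.8 TPM in BG and 80.6 and 87.9 TPM in EPI. Of these, Phvul.L001790.v2.1 and Phvul.L001890.v2.1, both 261 bp, had similar levels in every library, such as 207.5 and 190.9 TPM in BG library 1. Their sequences were not compared, and if they are near-identical copies they may share reads. The 4 genes of a run on chromosome 10, from 2485323 to 2520814, had 273.6 and 283.7 TPM in BG and 96.8 and 46.2 TPM in EPI libraries 1 and 2, so that EPI library 1 stood on the BG side of library 2.

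**Figure D4:**
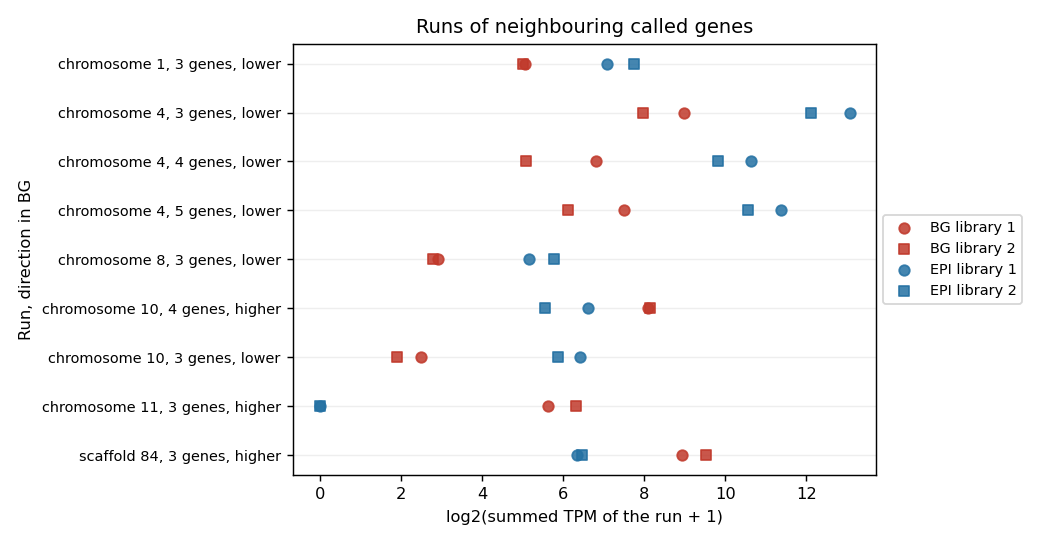
Summed level of each of the 9 runs of called genes, consecutive among the tested genes, in every BG (red) and EPI (blue) library. Levels are log2 of the summed TPM plus 1, with circles for library 1 and squares for library 2. In the 3 runs on chromosome 4 the blue circle (EPI library 1) lies farther from the BG libraries than the blue square. The red circle (BG library 1) there lies above the red square as well. The run on chromosome 11 is listed at 0 in both EPI libraries.

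The remaining run, on chromosome 11, lay at the far end of an interval at whose start strong changes in both directions lay close together. Between 49598759 and 50263331, 40 genes were tested, of which 8 were called higher and 3 lower, against 2.24% and 4.15% of the genes of the whole chromosome. The interval was bounded by called genes after their values were seen, so its share is not comparable with chance. At its start, 3 higher and 3 lower genes were interspersed. The higher ones were Phvul.011G182500.v2.1 and Phvul.011G183100.v2.1, described above, and the weaker Phvul.011G182800.v2.1 (49620973 to 49622810), at 12.6 and 7.18 TPM in BG, with 0.447 TPM in EPI library 1 and a listed 0 in library 2. Between these genes and the run, Phvul.011G184200.v2.1 stood at 547.4 and 391.4 TPM in BG and 46.9 and 58.2 TPM in EPI. Phvul.011G187400.v2.1, also called higher there, stood at 18.0 and 30.4 TPM in BG and 1.21 and 1.16 TPM in EPI.

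The 3 lower genes of the interval shared one pattern of levels. Phvul.011G183766.v2.1 (49728881 to 49729721) stood at 214.5 and 529.2 TPM in EPI and 5.002 and 6.97 TPM in BG (log2 change -5.61 ± 0.457 SE, limma adjusted p = 0.0177). Phvul.011G183300.v2.1 (49689309 to 49690761) stood at 120.8 and 450.5 TPM in EPI and 8.87 and 3.08 TPM in BG, and Phvul.011G182900.v2.1 (49642358 to 49644542) at 178.9 and 413.7 TPM in EPI and 19.4 and 12.02 TPM in BG. In all 3, EPI library 2 was the higher by more than a factor of 2 and both EPI libraries were far above both BG libraries. At the far end, the run of 3 higher genes between 50239048 and 50263331 was listed at 0 in both EPI libraries. Its first gene, Phvul.011G188700.v2.1 (50239048 to 50239816), stood at 39.6 and 72.7 TPM in BG (adjusted p = 0.0177). The next 2 lay at 2.09 to 4.99 TPM in BG and overlap on opposite strands over 870 bp of their 5561 and 4386 bp. The sources used here do not say whether strand was kept, so reads from the shared stretch may be assigned to either gene. The last of them, Phvul.011G189000.v2.1, passed in 2 of 16 alternatives, so that the run of 3 rests on a weak call (adjusted p = 0.047; range 0.0335 to 0.176, 0.0697 with the replicate block). Of the 11 called genes of the interval, 8 were called without EPI replicate 1, 1 without EPI replicate 2, 0 without either BG library, 6 with no filter on low values and 8 with the replicate block. These genes were described after their values were seen.

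**Figure D5:**
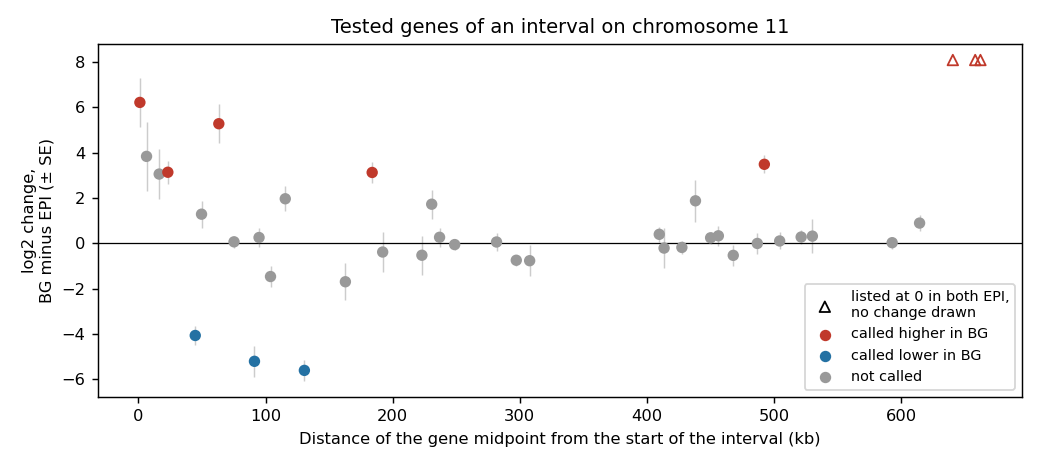
Log2 change in BG against EPI, with its SE, for the 40 tested genes of the interval on chromosome 11, by distance of the gene midpoint from the interval's start in kb. Filled red and blue points are genes called higher and lower and grey points were not called, while the 3 open triangles at the upper edge are called genes listed at 0 in both EPI libraries, for which no change is drawn. Higher and lower genes lie interspersed at the left end.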

How the data were processed

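Per the labels' protocols, a Qiagen RNeasy kit gave the RNA and a SMARTER mRNA-Seq kit the libraries. The submitters' processing notes name Trimmomatic, HISAT2 and StringTie, without versions. Strand retention and genome build are not given in the sources used here. Coordinates are those of the files. The deposited TPM values (the authors' normalization for length and library size) were analysed, the FPKM values deposited by the authors served as an alternative, and the deposited coverage, divided by FPKM, gave relative depth at equal read length. No read counts were used, so no counting intervals are given.

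Sample titles gave the groups and replicate numbers. Values were analysed as log2(TPM + 1), which understates changes of low genes, in limma 3.58.1 (R 4.3.3), with a mean for each of the 3 groups over 6 libraries (3 residual degrees of freedom), a variance trend, two-sided tests and Benjamini-Hochberg adjustment over 21133 genes at 0.05. AG entered only the spread. An exact permutation test of 2 libraries against 2 cannot go below p = 0.33. Data were also simulated for BG against EPI with 21133 genes, 200 of them changed. Of these changes, 47% of 4-fold, 96.5% of 16-fold and 1.49% of 2-fold ones were recovered, with a mean of 9.2 false calls. Those false calls were a larger share of the simulated calls than the 0.05 aimed at. Far fewer genes were changed than the 1102 called in the real data, which makes the adjustment stricter. The percentages recovered thus do not give the recovery in the real contrast. The changed genes were drawn only from those with a mean above 3 on the log2(TPM + 1) scale. The simulated noise was normal and independent between genes, with the spread estimated by limma. Recovery of genes at lower levels was thus not simulated, and real libraries may vary otherwise.

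None of the 27433 gene IDs (0) occurs among the 34165 rows of RefSeq's gene table for assembly P. vulgaris v2.0. By span 80.5% of the genes had a mutual best partner with a reciprocal overlap of at least 0.5, but the table holds neither strand nor product names, so no name was taken from it and the planned gene lists, which needed product names, were not used. Named genes were, by rule, the 2 largest rises and falls among called genes with separated groups and at least 10 TPM, the leading gene of each library and, per direction, the 3 called genes with the widest gap between the EPI libraries. The rule, the comparison and the alternatives were chosen with earlier results of these data known; other genes were named after their values were seen. Alternatives are listed in the closing section. Figures were drawn with matplotlib 3.10.9.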

Additional observations from a re-analysis of the deposited data

How the results depend on the processing

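The count of 1102 called genes (373 higher, 729 lower) stayed within 1.5 times under pseudocounts of 0.1 and 10, a stricter filter, median-of-ratios and quantile scaling, FPKM, no variance trend, the BG and EPI libraries alone, the replicate block and the loss of either AG library, from 881 to 1165, with 1 exception: with a pseudocount of 0.1, 236 genes were higher. With no filter on low values the count was 438 (165 higher, 273 lower), and against a 1.5-fold threshold 426 (128 higher, 298 lower). Leaving out 1 library gave 0 to 969 genes, with 0 to 444 higher and 0 to 693 lower. The number of genes at least 4-fold from EPI library 1 was 1536, and 2441 with a pseudocount of 0.1 and 398 with one of 10; from EPI library 2 it was 2344, and 628 with a pseudocount of 10. The cause of these shifts was not tested. Leaving out a library also removes a residual degree of freedom, and 2 were left whichever library was left out. No named gene reversed its direction in any alternative run.

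With the replicate number as a block, 886 genes were called (265 higher, 621 lower), 754 of them among the 1102. The numbers are not stated to mark shared plants or batches. Deviations of same-numbered libraries correlated at 0.253 between BG and EPI, 0.0944 between BG and AG and -0.0443 between EPI and AG, not all above 0.1. Whether the BG and EPI libraries of one number share a source was not tested further.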
